A study of Mus musculus with 12 samples.

Results

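The 9 genes described here encode transcription factors that establish and maintain the hepatocyte program, and they were found by symbol among the 45777 genes of the deposited liver table: *Hnf4a*, *Foxa1*, *Foxa2*, *Foxa3*, *Cebpa*, *Cebpb*, *Onecut1*, *Prox1* and *Nr5a2*. The set was chosen with earlier results of these data known, so it was not blind to them. Each of the 9 passed the filter on low counts in every comparison made. The study asked how loss of Gα12, a G protein subunit encoded by *Gna12*, changes acute liver injury by acetaminophen (APAP), a painkiller that damages hepatocytes when overdosed. Poly-A RNA from whole liver was sequenced in 12 male C57BL/6 mice, 3 in each of 4 groups. WT mice formed a vehicle group and an APAP group, and so did mice whose labels give a *Gna12* knockout (KO, Gα12-/-). The methods describe the WT mice as littermates of the KO mice and name no cell type to which the deletion was restricted. APAP was injected once into the abdomen at 300 mg/kg after an overnight fast, and livers were taken 6 h later. The vehicle is not named for these mice. Ages were 10 to 12 weeks in the labels and 8 to 12 weeks in the methods.

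HNF4A is a nuclear receptor that binds enhancers of most liver-specific genes. FOXA1, FOXA2 and FOXA3 are forkhead proteins that open compacted chromatin for other factors, and C/EBPα and C/EBPβ are basic leucine zipper proteins that bind one motif but differ in use, the former in resting metabolism and the latter in the acute-phase and regenerative response. ONECUT1 (HNF6) and PROX1 act in liver development and in adult metabolism, and NR5A2 (LRH-1) is a nuclear receptor of bile acid and cholesterol genes. These proteins occupy many of the same enhancers and bind each other's genes, so their transcripts are commonly read as a set.

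The total count per liver ranged from 49737950 to 69566079. *Gna12* had 1193 to 4373 counts in livers labelled WT and 2472 to 4003 in livers labelled KO, so it was not lower under the KO label, and genotypes are given as labels throughout. The count pools reads over the whole gene, so it cannot show whether a part of the gene was deleted. The paper describes genomic PCR, liver qRT-PCR and Gα12 immunoblots in its WT and KO mice. WT APAP replicate 1 stood apart, with 238212 counts of the hemoglobin gene *Hba-a1* against 2551 to 7713 in the other livers and 47.9% of its counts on its 50 most abundant genes against 34.5% to 43.7% elsewhere. WT vehicle replicate 2 also stood apart from its group, with 1659 counts of *Gna12* against 3550 and 3172 in the other WT vehicle livers. Of the 9 factors, 6 were lowest in WT APAP replicate 1 and 3 were highest in WT vehicle replicate 2. Leaving both out was decided after the data were seen, so a factor that passes only then gains no independent support. Results that rest on either liver are given with and without both. The summed level of 8 hepatocyte markers, albumin included, was 64769 to 103750 TPM (a level per transcript length, scaled to the same total in each liver) over the 12 livers. Sums of 8 markers each were 18.5 to 36.6 TPM for biliary cells, 83.6 to 154 for endothelial cells, 83.3 to 221 for macrophages and 8.50 to 15.0 for pancreas, and 6 erythroid markers summed to 657 to 1560 TPM outside WT APAP replicate 1, where they reached 28806. Neutrophil markers summed to 0.435 to 37.9 TPM with vehicle and 23.3 to 232 with APAP under the WT label, and to 0.647 to 2.32 and 1.11 to 17.1 under the KO label. Of these markers *Mpo* and *Camp* were at 0 in every liver, and *Ly6g* and *Ngp* reached 6 and 18 counts. *S100a8*, *S100a9*, *Cxcr2* and *Retnlg* reached 1598, 3384, 192 and 678 counts. In whole liver, fewer hepatocytes and less RNA per hepatocyte cannot be told apart.

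Per transcript length, *Hnf4a* was the most abundant of the 9, with a median of 282 TPM over the 12 livers (range 133 to 414), and it was above *Cebpa* in each liver. *Cebpa* (median 114 TPM), *Cebpb* (86.4), *Foxa3* (46.7), *Prox1* (23.9), *Foxa2* (20.8) and *Nr5a2* (15.9) followed, and *Onecut1* (5.99) and *Foxa1* (5.97) were lowest. The range of each factor overlapped that of the next in this order. *Foxa3* was nevertheless above *Prox1* in 12 of 12 livers, whereas *Cebpa* was above *Cebpb* in 9, *Foxa2* above *Nr5a2* in 7 and *Onecut1* above *Foxa1* in 6. All further levels are CPM, counts scaled to library size by edgeR's TMM method, which compare one gene between livers and not genes with each other.

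Over the 12 livers, with the genotype label as a covariate, *Cebpb* was higher and *Nr5a2* lower after APAP, and the other 7 factors did not pass an adjusted p-value of 0.05. Of all 16509 genes tested, 14.0% were called higher and 11.4% lower in this comparison, so 1 of 9 factors in each direction is near the share of all genes. The median log2 fold change of the 9 was -0.21, against 0.01 for all genes, but its sign differed between labels, with -0.35 under the WT label (8 of 9 below 0) and 0.18 under the KO label (5 of 9 above 0). The signs under the WT label depended on the livers that stood apart. Without both, *Hnf4a* (0.21), *Foxa2* (0.16), *Foxa3* (0.10), *Onecut1* (0.32) and *Prox1* (0.38) were above 0 there. The values of the 6 APAP livers overlapped those of the 6 vehicle livers for each of the 9 factors, where 12.5% of all genes did not overlap. Within the KO label 1 factor was called higher and 1 lower, where 13.0% and 9.6% of 15665 genes were. Under the WT label 0 of the 9 were called, where 1.62% of 15693 genes were called higher and 0.427% lower; no factor had an unadjusted p-value under 0.05 there in edgeR's quasi-likelihood test, the test behind every adjusted p marked edgeR, and DESeq2's Wald test also called 0. Of the 15693 genes, 1683 had such a p-value with a higher level and 1134 with a lower one.

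**Figure D1:**
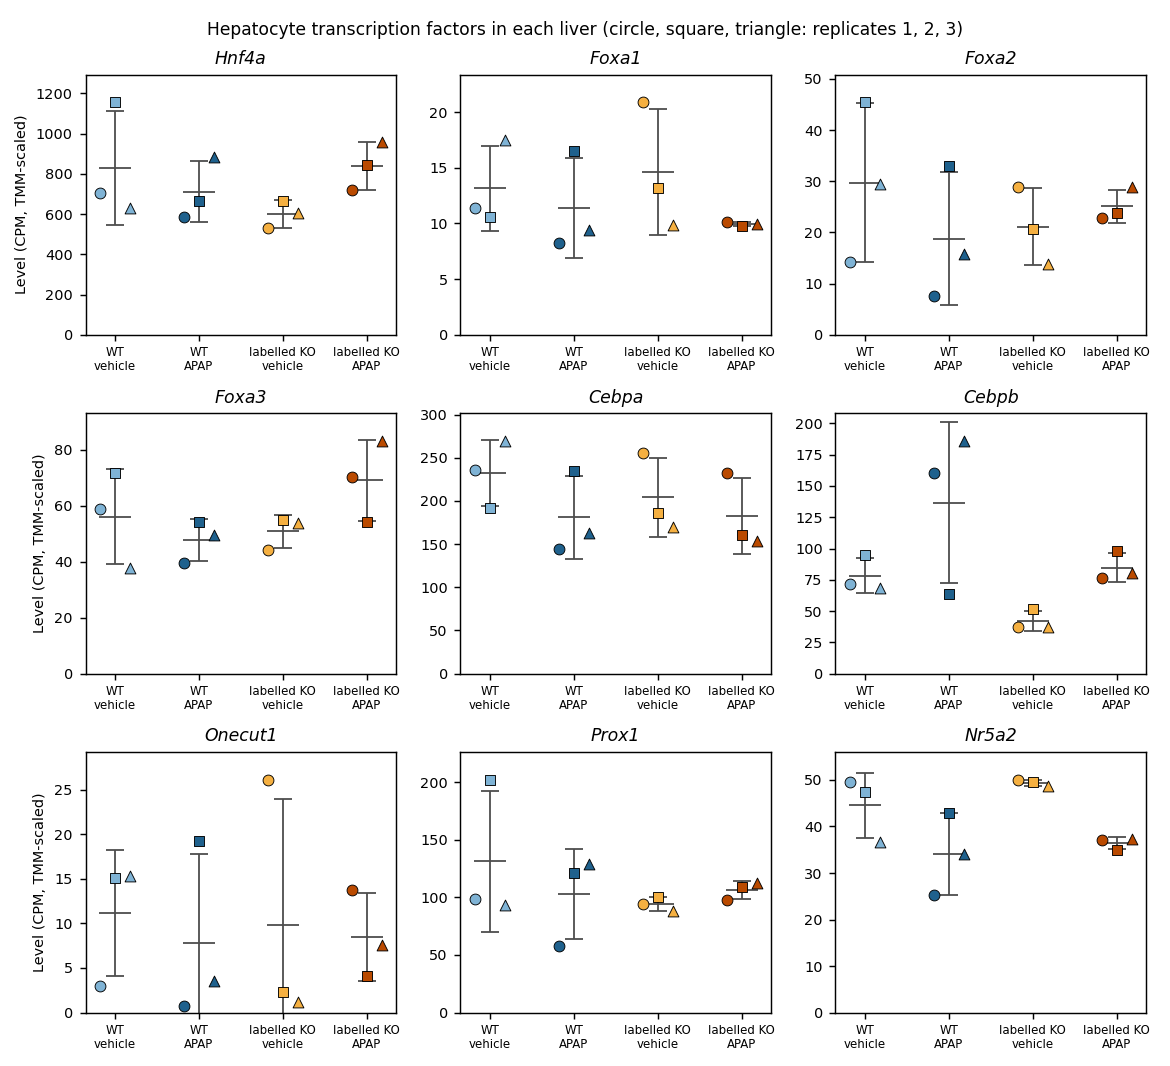
Level of each factor (CPM, linear axis from 0) in each liver by group; symbols mark replicates 1, 2 and 3, and the grey lines give the group mean and SD of 3 livers, with lower bars of *Onecut1* ending at 0. *Cebpb* goes from 37.5 to 51.6 CPM with vehicle to 76.3 to 97.7 CPM with APAP under the KO label, *Nr5a2* goes from 48.6 to 49.96 CPM to 34.9 to 37.3 CPM, and *Onecut1* spans 0.755 to 26.1 CPM.

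*Cebpb* (gene ID 12608, chromosome 2 from 167688915 to 167690432, GRCm38), the C/EBP of the acute-phase response, had 71.9, 94.7 and 68.5 CPM in WT vehicle replicates 1, 2 and 3 and 160, 63.9 and 186 CPM in the WT APAP replicates. In livers labelled KO it had 37.5, 51.6 and 37.7 CPM with vehicle and 76.3, 97.7 and 80.1 CPM with APAP. The KO-labelled groups did not overlap, as for 42.9% of all genes, while WT APAP replicate 2 lay below all 3 WT vehicle livers; under the WT label 0 of the 9 factors were free of overlap, against 24.9% of genes. Over the 12 livers the log2 fold change was 0.90 (SE 0.22, adjusted p = 0.00883, edgeR), or 1.87-fold. It was 1.01 under the KO label (SE 0.17, adjusted p = 0.00514 by the same test) and 0.81 under the WT label (SE 0.38, adjusted p = 0.312). The KO call held in 8 of 10 other settings. It was lost with all 12 livers in 1 fit (adjusted p = 0.0576, edgeR) and in an unmoderated test on the study's scale (adjusted p = 0.0522). The 12-liver call held in each of 12 fits that left out 1 liver (log2 fold change 0.79 to 1.08), and without both livers that stood apart the value was 0.94 (adjusted p = 0.0100). *Cebpb* was not called under the WT label, and of 6 fits that left out 1 liver there, the 1 without WT APAP replicate 2 passed, with 1.13 on the log2 scale (adjusted p = 0.0497, edgeR). Myeloid cells also express *Cebpb*. The neutrophil marker sum was 0.435, 37.9 and 0.534 TPM in WT vehicle replicates 1, 2 and 3, and 232, 23.3 and 50.1 TPM in the WT APAP replicates. Under the KO label it reached 2.32 TPM with vehicle and 17.1 with APAP. The part of this sum in the result was not tested.

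The *Cebpb* gene has no intron, and 250 bases before its RefSeq start (chr2:167688665-167688914, GRCm38.p6, plus strand) are shown because it is the factor with the largest called change. Capitals mark TGACG, the half-site of the cAMP and ATF response element (CRE), on either strand. It occurs at 3 places, beginning 180, 53 and 7 bases before the start, and 81.6% of the window is G or C.
Cebpb: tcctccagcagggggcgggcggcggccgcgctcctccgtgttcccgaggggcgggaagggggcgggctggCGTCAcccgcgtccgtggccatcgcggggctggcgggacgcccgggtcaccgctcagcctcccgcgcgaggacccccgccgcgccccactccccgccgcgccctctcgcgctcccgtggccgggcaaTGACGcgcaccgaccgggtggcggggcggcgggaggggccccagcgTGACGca
Of 32851 windows of this length before RefSeq starts of all genes, 17.8% hold TGACG on either strand, and 1.55% hold the full element TGACGTCA, of which TGACG is a part and which is not in the *Cebpb* window. A match of letters is a description and not a binding site.

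*Cebpa* (gene ID 12606, chromosome 7 from 35119293 to 35121928), the C/EBP of the resting liver, had 236, 192 and 269 CPM in the WT vehicle livers and 145, 235 and 163 CPM in the WT APAP livers. Livers labelled KO had 256, 186 and 170 CPM with vehicle and 233, 160 and 153 CPM with APAP. Vehicle and APAP livers overlapped under both labels. The log2 fold change over the 12 livers was -0.26 (SE 0.17, 95% confidence interval -0.62 to 0.10, adjusted p = 0.282, edgeR). The ratio of *Cebpb* to *Cebpa*, taken per transcript length, was 0.530, 0.856 and 0.442 in the WT vehicle livers and 1.93, 0.472 and 1.98 in the WT APAP livers. It was 0.254, 0.482 and 0.385 with vehicle and 0.569, 1.06 and 0.906 with APAP under the KO label, where the groups did not overlap. *Cebpb* thus exceeded *Cebpa* in 3 livers, all given APAP. The ratio was chosen after the values were seen. It was 2.17-fold higher with APAP, with p = 0.0250 in a two-sided exact permutation test over the 400 assignments within genotype labels, which can go no lower than 0.00500, and 0.0750 after Benjamini-Hochberg adjustment over the 3 ratios and shares examined. Without both livers that stood apart it was 2.13-fold (p = 0.05 by the same exact test, over 120 assignments).

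**Figure D2:**
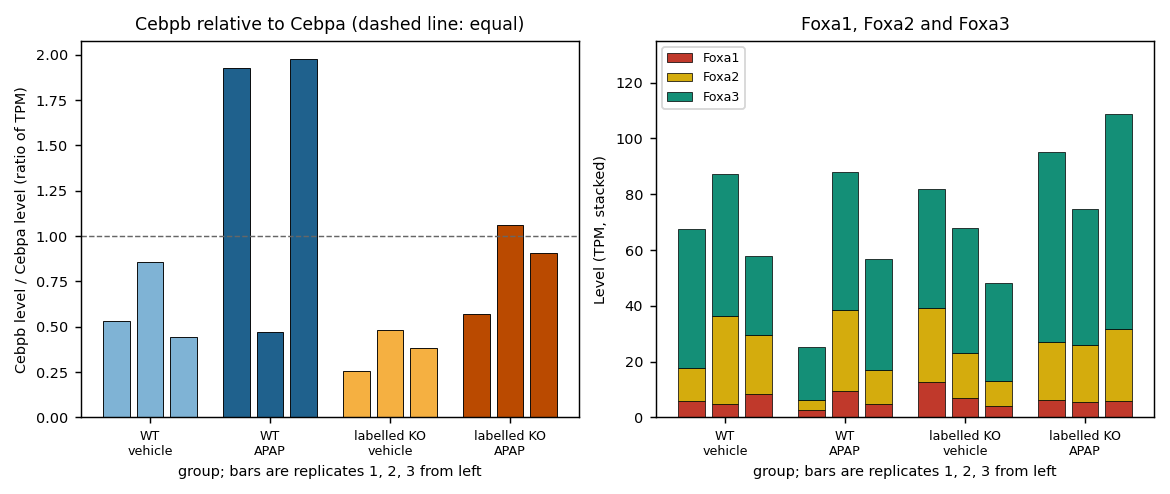
Left, ratio of *Cebpb* to *Cebpa* (TPM over TPM) in each liver; right, levels of *Foxa1*, *Foxa2* and *Foxa3* stacked (TPM); bars stand for single livers in replicate order, with 3 livers per group. The ratio passes 1 in 3 APAP livers, and *Foxa3* is the largest part of each stacked bar, at 48.9% to 75.9%.

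*Nr5a2* (gene ID 26424, chromosome 1 from 136842562 to 136960448, minus strand), the receptor of bile acid genes, had 49.5, 47.5 and 36.6 CPM in the WT vehicle livers and 25.3, 42.8 and 34.0 CPM in the WT APAP livers. Livers labelled KO had 49.96, 49.6 and 48.6 CPM with vehicle and 37.1, 34.9 and 37.3 CPM with APAP. The KO-labelled groups did not overlap and had an SD of 1.41% (vehicle) and 3.68% (APAP) of their mean, while the WT groups overlapped. The log2 fold change was -0.41 over the 12 livers (SE 0.12, adjusted p = 0.0254, edgeR), or 0.751-fold, and -0.43 under the KO label (SE 0.11, adjusted p = 0.0229). Under the WT label it was -0.38 (SE 0.23, adjusted p = 0.429). Both calls were close to the threshold. Over the 12 livers the adjusted p rose to between 0.0507 and 0.0641 when WT vehicle replicate 1, WT APAP replicate 3, KO vehicle replicate 1 or 2, or KO APAP replicate 2 or 3 was left out, and it was 0.0399 without both livers that stood apart (log2 fold change -0.32). Within the KO label it rose to between 0.0546 and 0.0772 in 5 of 6 such fits, all but the one without KO vehicle replicate 3. The KO call held in 8 of 10 other settings. It was lost with all 12 livers in 1 fit (adjusted p = 0.127, edgeR) and with the replicate number as a block (0.0550, edgeR).

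The table counts *Nr5a2* as 1 gene, whereas RefSeq lists 2 starts for it, and the windows before both are shown, since transcripts from either enter the same count. Positions are chr1:136960449-136960698 for the upstream start and chr1:136953631-136953880 for the downstream start (GRCm38.p6, minus strand, printed 5′ to 3′ along the gene). In the upstream window capitals mark GTTAAT, a half-site of HNF1, and the TATA box TATAAA on the opposite strand, and in the downstream window they mark TTGCNNAA, a C/EBP motif, on the opposite strand.
Nr5a2 upstream: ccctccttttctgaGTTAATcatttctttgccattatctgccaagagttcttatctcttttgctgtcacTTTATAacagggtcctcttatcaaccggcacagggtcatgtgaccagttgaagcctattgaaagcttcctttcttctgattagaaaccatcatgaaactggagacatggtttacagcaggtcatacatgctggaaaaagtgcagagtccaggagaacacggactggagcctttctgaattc
Nr5a2 downstream: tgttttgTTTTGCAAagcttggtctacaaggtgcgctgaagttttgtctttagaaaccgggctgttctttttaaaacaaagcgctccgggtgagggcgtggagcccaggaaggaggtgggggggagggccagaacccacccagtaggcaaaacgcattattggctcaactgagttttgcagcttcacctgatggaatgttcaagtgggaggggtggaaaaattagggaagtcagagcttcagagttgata
GTTAAT is in 6.43% of all windows, TTGCNNAA in 9.56% and TATAAA in 12.4%, on either strand. The C/EBP motif was found in no other window of the 14 that RefSeq gives for the 9 factors. The AP-1 motif TGANTCA (6.75% of all windows), the HNF4A motif CAAAGTCCA (0.384%) and the NR5A2 motif CAAGGTCA (1.33%) were in none of the 14.

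*Hnf4a* (gene ID 15378, chromosome 2 from 163506811 to 163572907) had 707, 1155 and 629 CPM in the WT vehicle livers and 586, 666 and 881 CPM in the WT APAP livers. Livers labelled KO had 531, 666 and 605 CPM with vehicle and 718, 844 and 957 CPM with APAP, without overlap. WT vehicle replicate 2, 1 of the livers that stood apart, had the highest value of all. Its log2 fold change was 0.13 over the 12 livers (95% confidence interval -0.29 to 0.55, adjusted p = 0.666, edgeR). It was 0.49 under the KO label (SE 0.16, adjusted p = 0.0600) and -0.21 under the WT label (SE 0.30, adjusted p = 0.742). *Hnf4a* passed under the KO label in 3 of 10 other settings, with an adjusted p of up to 0.212 in the rest. Among the 3 were DESeq2's Wald test (adjusted p = 0.0149) and limma on quantile-normalized log2(TPM + 1) (adjusted p = 0.0260). Under this label 0 of 6 fits that left out 1 liver passed (adjusted p 0.0624 to 0.187, edgeR). Without both livers that stood apart the 12-liver value was 0.38 and passed (adjusted p = 0.0357, edgeR), and the WT value turned to 0.21. The antisense gene *Hnf4aos*, which overlaps *Hnf4a*, had 173 to 393 counts per liver and fell by 0.71 on the log2 scale over the 12 livers (SE 0.17, adjusted p = 0.0102, edgeR) and by 0.85 under the KO label (SE 0.23, adjusted p = 0.0331). The library kit keeps the strand, but whether the counting used it is not stated, so reads of the sense and antisense genes cannot be told apart.

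*Hnf4a* is transcribed from an upstream promoter, typical of fetal liver and gut, and from a downstream promoter that serves the adult liver, and the count per gene pools them. The windows before both RefSeq starts are shown for this reason (chr2:163506607-163506856 and chr2:163546905-163547154, GRCm38.p6, plus strand). Capitals mark ATTGAT, an ONECUT motif, on the opposite strand of the upstream window, and 2 copies of the HNF1 half-site GTTAAT on the opposite strand of the downstream window.
Hnf4a upstream: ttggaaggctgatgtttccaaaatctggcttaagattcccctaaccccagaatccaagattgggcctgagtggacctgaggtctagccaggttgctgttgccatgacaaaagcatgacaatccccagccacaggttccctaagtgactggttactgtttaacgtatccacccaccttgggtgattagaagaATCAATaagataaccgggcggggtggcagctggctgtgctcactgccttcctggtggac
Hnf4a downstream: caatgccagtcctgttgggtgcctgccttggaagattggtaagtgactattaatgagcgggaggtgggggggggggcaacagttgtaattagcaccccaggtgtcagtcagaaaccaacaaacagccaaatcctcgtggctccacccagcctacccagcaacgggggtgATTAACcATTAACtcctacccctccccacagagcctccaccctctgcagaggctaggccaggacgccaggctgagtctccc
ATTGAT is in 6.72% of all windows on either strand. The table's values do not say which start was in use.

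Among the FOXA pioneer factors none passed in any comparison. *Foxa3* (gene ID 15377, chromosome 7 from 19013283 to 19023539), the most abundant of them in adult liver, had 58.9, 71.6 and 37.8 CPM in the WT vehicle livers and 39.4, 54.0 and 49.4 CPM in the WT APAP livers. With the KO label it had 44.2, 54.8 and 53.8 CPM with vehicle and 70.3, 54.1 and 83.0 CPM with APAP. The KO-labelled groups did not overlap when scaled on their own 6 livers, while on the scale of all 12 livers the lowest APAP value, 54.1, was just under the highest vehicle value, 54.8. Its log2 fold change was 0.45 under the KO label (SE 0.17, adjusted p = 0.0973, edgeR) and -0.23 under the WT label (SE 0.25, adjusted p = 0.676). The KO value passed in 1 of 6 fits that left out 1 liver, the one without KO APAP replicate 2 (0.60, adjusted p = 0.0339). It passed in 0 of 10 other settings.

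*Foxa2* (gene ID 15376, chromosome 2 from 148042877 to 148046969) had 14.3, 45.4 and 29.5 CPM in the WT vehicle livers and 7.49, 33.0 and 15.9 CPM in the WT APAP livers. In livers labelled KO it had 28.8, 20.6 and 13.9 CPM with vehicle and 22.7, 23.7 and 28.8 CPM with APAP. Every group overlapped every other, and the lowest and highest livers were those that stood apart. Its log2 fold change over the 12 livers was -0.21 (95% confidence interval -0.98 to 0.57, adjusted p = 0.716, edgeR) and 0.22 without both of these livers (adjusted p = 0.554). *Foxa1* (gene ID 15375, chromosome 12 from 57540628 to 57548029) had 11.4, 10.6 and 17.5 CPM in the WT vehicle livers and 8.24, 16.5 and 9.41 CPM in the WT APAP livers. With the KO label it had 20.9, 13.2 and 9.88 CPM with vehicle and 10.1, 9.75 and 9.93 CPM with APAP, its tightest group, and vehicle and APAP livers overlapped under both labels. The log2 fold change of *Foxa1* was -0.38 over the 12 livers (SE 0.22, adjusted p = 0.225) and -0.55 under the KO label (SE 0.25, adjusted p = 0.142), both by edgeR. Of 12 fits over all livers that left out 1, *Foxa1* passed in 1, the one without WT APAP replicate 2 (-0.56, adjusted p = 0.0484). Of 6 such fits under the KO label it passed in 1, without KO vehicle replicate 3 (-0.77, adjusted p = 0.0497). *Ttc6*, which overlaps *Foxa1*, had 29 to 90 counts per liver.

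Measured per transcript length, *Foxa3* made up 48.9% to 75.9% of the summed FOXA transcripts, *Foxa2* 13.9% to 36.6% and *Foxa1* 5.42% to 15.4%. The sum was 57.8 to 87.4 TPM in the WT vehicle livers, 25.3 to 88.0 in the WT APAP livers, 48.1 to 81.8 in the KO vehicle livers and 74.8 to 109 in the KO APAP livers. With APAP the share of *Foxa3* was 1.11-fold that with vehicle (p = 0.290, two-sided exact permutation test within genotype labels, 0.290 after adjustment over the 3 ratios and shares) and that of *Foxa1* 0.792-fold (p = 0.255, adjusted 0.290). The letters TGTTTAC, a FOXA motif found in 3.17% of all windows, occur in the *Foxa1* window and in no other of the 14.

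*Prox1* (gene ID 19130, chromosome 1 from 190118035 to 190170827), a homeobox repressor of bile acid and lipid genes, had 98.9, 202 and 93.2 CPM in the WT vehicle livers and 57.6, 121 and 129 CPM in the WT APAP livers. In livers labelled KO it had 94.6, 100.5 and 88.2 CPM with vehicle and 97.8, 109 and 112 CPM with APAP. The lowest and the highest value again came from the livers that stood apart. Its log2 fold change was -0.09 over the 12 livers (SE 0.23, adjusted p = 0.806, edgeR) and 0.26 without these livers, where it passed (adjusted p = 0.0328, edgeR). In that fit of 10 livers 18.4% of 16887 genes were called higher and 14.9% lower. The antisense gene *Prox1os* had 226 to 457 counts per liver, and the limit on strand given for *Hnf4aos* holds here too.

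**Figure D3:**
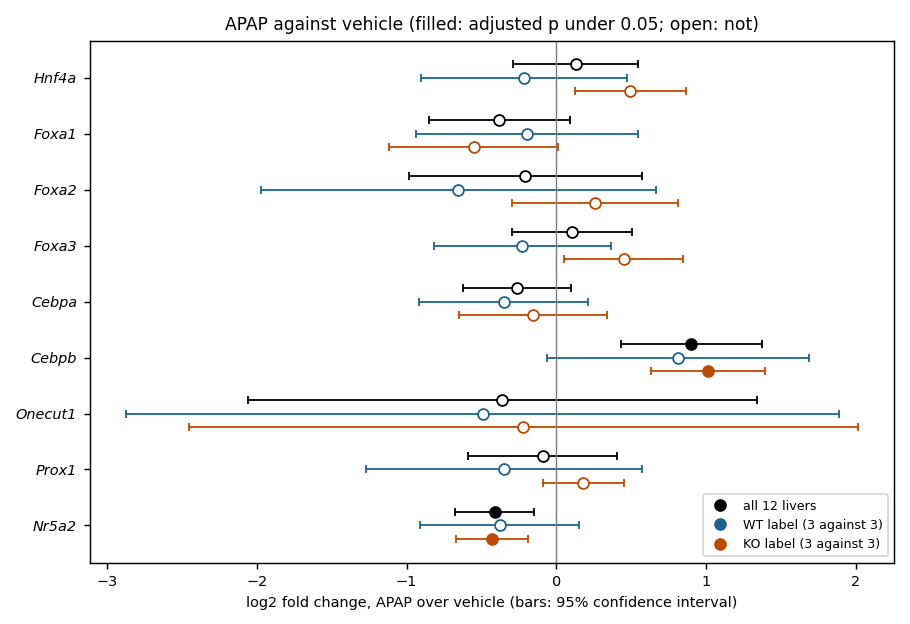
Log2 fold change of each factor with APAP relative to vehicle (horizontal axis) over all 12 livers, under the WT label and under the KO label; bars are 95% confidence intervals and filled points have an adjusted p under 0.05. *Cebpb* and *Nr5a2* are filled over the 12 livers and under the KO label, no point is filled under the WT label, and the intervals of *Onecut1* run from about -2.87 to 2.01.

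*Onecut1* (gene ID 15379, chromosome 9 from 74861921 to 74889648), which encodes the cut-homeodomain factor HNF6, varied most. Its raw counts were 160, 719 and 769 in the WT vehicle livers, 38, 1448 and 225 in the WT APAP livers, 1553, 119 and 55 in the KO vehicle livers and 789, 254 and 535 in the KO APAP livers. In CPM these were 3.00, 15.1 and 15.4, then 0.755, 19.2 and 3.58, then 26.1, 2.32 and 1.22, and then 13.8, 4.06 and 7.61. The highest liver was 34.6 times the lowest, every group overlapped every other, and values within the WT APAP and KO vehicle groups spanned 25.5-fold and 21.5-fold. Within groups the SD of its log2 CPM was 1.82, at rank 94 from the highest among 16509 genes, whose median was 0.34. It was above that of 99.9% of 7854 genes with a mean log2 CPM of at least 3, whose median was 0.23. *Onecut1* itself has a mean below 3 and is not among these 7854 genes. *Foxa2* came next among the 9 with 0.73, above 97.7% of these genes, and *Nr5a2* was lowest with 0.23, above 47.2%. The log2 fold change of *Onecut1* over the 12 livers was -0.36 (95% confidence interval -2.06 to 1.34, adjusted p = 0.776, edgeR). Under the KO label it was -0.22 (SE 0.98), and without KO vehicle replicate 1 it was 2.28 and passed (adjusted p = 0.0297), so its direction there was set by 1 liver. The noncoding genes *Gm33562* and *Gm38678* overlap *Onecut1* and had 0 to 19 and 6 to 275 counts per liver.

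The levels of *Onecut1* and *Foxa2* were correlated over the livers, though not in the KO APAP group, where replicate 1 was highest in *Onecut1* and lowest in *Foxa2*. Over the 12 livers their log2 CPM had a Pearson r of 0.87 and a Spearman rho of 0.90 (permutation p = 0.000200 and 0.000210, adjusted over the 36 pairs of factors 0.00720 and 0.00594). The permutations for pairs shuffled all 12 livers without regard to group, so differences between groups enter these p-values. No p was computed within groups. Within groups r was 0.86, and without the 2 livers farthest from the median of *Foxa2*, which are the livers that stood apart, it was 0.84. Of the other pairs, *Foxa1* with *Cebpa* had r = 0.81 (rho 0.88, permutation p = 0.00103 and 0.000330, adjusted 0.0185 and 0.00594). *Hnf4a* with *Prox1* had r = 0.79 (rho 0.81, permutation p = 0.00156 and 0.00215, adjusted 0.0187 and 0.0203), and 0.62 without the 2 farthest livers. *Cebpb* with *Nr5a2* had r = -0.77 (rho -0.81, permutation p = 0.00265 and 0.00225, adjusted 0.0239 and 0.0203), but only -0.52 within groups. These are also the factors called with APAP over the 12 livers, in opposite directions, and the part of treatment in this relation was not tested. *Foxa2* with *Prox1* had r = 0.76 (adjusted permutation p = 0.0418), a relation that rested on the 2 livers that stood apart, since r was 0.17 without them.

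**Figure D4:**
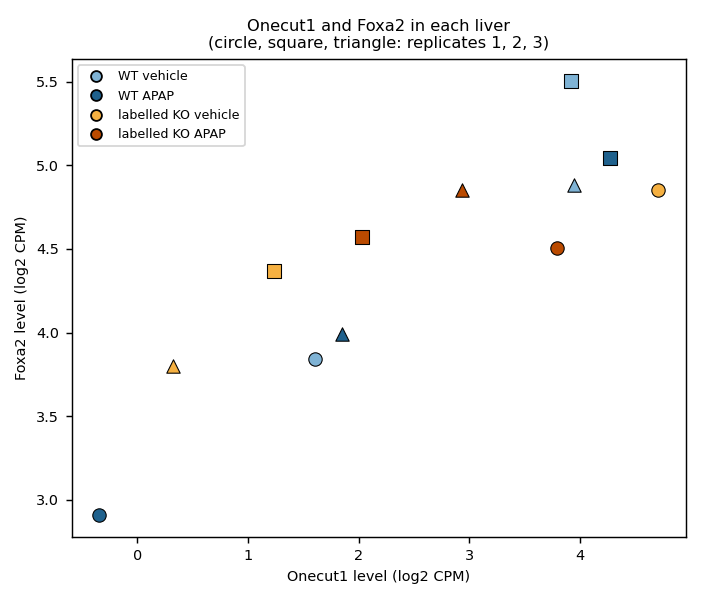
Level of *Foxa2* (vertical axis, log2 CPM) against that of *Onecut1* (horizontal axis, log2 CPM) in each of 12 livers; colours mark the 4 groups and symbols replicates 1, 2 and 3. The points rise together over the 12 livers (r = 0.87) but not within the 3 KO APAP livers, with WT APAP replicate 1 lowest on both axes.

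The windows before the *Onecut1* start (chr9:74861671-74861920, plus strand) and the most upstream *Foxa2* start (chr2:148046970-148047219, minus strand, both GRCm38.p6) are shown because the levels of these factors were correlated over the 12 livers. Capitals mark TGACG on the opposite strand, 139 bases before the *Onecut1* start, and ATTGAT on the same strand, 213 bases before the *Foxa2* start.
Onecut1: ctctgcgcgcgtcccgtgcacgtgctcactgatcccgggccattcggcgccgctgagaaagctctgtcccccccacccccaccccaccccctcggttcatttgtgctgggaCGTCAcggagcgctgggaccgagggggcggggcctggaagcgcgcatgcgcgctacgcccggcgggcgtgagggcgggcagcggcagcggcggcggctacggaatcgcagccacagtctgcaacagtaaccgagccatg
Foxa2: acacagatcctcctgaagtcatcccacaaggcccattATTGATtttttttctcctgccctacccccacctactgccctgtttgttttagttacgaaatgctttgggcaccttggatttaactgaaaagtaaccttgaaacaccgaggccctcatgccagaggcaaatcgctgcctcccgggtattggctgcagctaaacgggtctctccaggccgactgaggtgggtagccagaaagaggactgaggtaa
Apart from *Cebpb*, *Onecut1* is the only one of the 9 with TGACG in a window. ATTGAT, the letters read by ONECUT proteins, were found before *Foxa2* and *Hnf4a* only. RefSeq gives 3 windows for *Foxa2*, and the one shown is the only one of them with ATTGAT.

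Among 7853 other genes with a mean log2 CPM of at least 3, the pattern most like that of *Onecut1* over the 12 livers was that of *Nr3c1*, the glucocorticoid receptor (r = 0.89), followed by *Foxa2*. *Nr3c1* was also the gene most like *Cebpa* (r = 0.88), ahead of *Arhgap29* (0.86). *Cebpb* was most like *Tpt1* (0.95) and *Map1lc3a* (0.94), *Nr5a2* most like *Kbtbd4* (0.95) and *Pik3r4* (0.94), *Hnf4a* most like *Kri1* (0.95) and *Ythdf1* (0.90), and *Prox1* most like *Rprd1b* (0.97) and *Golga3* (0.92). For the FOXA factors these were *Arap1* (0.91) and *Vps13d* (0.90) for *Foxa1*, *Ibtk* (0.89) and *Ppp4r3a* (0.86) for *Foxa2*, and *Nfxl1* (0.90) and *Trim25* (0.89) for *Foxa3*. These values are the highest of many and share the same 12 libraries, so they describe likeness only.

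The genotype labels were compared at each treatment. After APAP 0 of the 9 factors passed between WT and KO labels, where 0.0309% of 16174 genes did, and 0 of 9 groups were free of overlap against 8.59% of genes. The smallest unadjusted p was that of *Foxa3*, with a log2 fold change of -0.53 for WT relative to KO (95% confidence interval -1.004 to -0.05, unadjusted p = 0.0353 and adjusted p = 0.958, edgeR). With vehicle 0 of 9 passed by edgeR, where 0.0262% of 15262 genes did, and 1 of 9 did not overlap, where 14.0% of genes did not. That factor was *Cebpb*, at 68.5 to 94.7 CPM under the WT label and 37.5 to 51.6 CPM under the KO label. Its log2 fold change was 0.89 (SE 0.18, unadjusted p = 0.00142 and adjusted p = 0.397, edgeR), and it passed by DESeq2's Wald test (adjusted p = 0.00542). The treatment response differed between labels for 0 of 9 factors and 0.0% of all genes by edgeR's interaction test. Of all genes, 848 had an unadjusted p under 0.05 in that test, and DESeq2's Wald test called 9. The interaction of *Hnf4a* was -0.71 (95% confidence interval -1.46 to 0.04, unadjusted p = 0.0628, edgeR) and that of *Foxa3* -0.68 (-1.39 to 0.04, unadjusted p = 0.0619, edgeR), and neither passed after adjustment (both adjusted p = 0.872).

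Genes that act with the 9 factors were followed in 5 lists. These were chosen with earlier results of these data known, so their counts beside the share of all genes are a description. Of 12 partners and inhibitors of C/EBP proteins, 7 rose and 0 fell over the 12 livers, where 14.0% of all genes rose and 11.4% fell, and their median log2 fold change was 1.19 against 0.01 for all genes. *Ddit3*, which encodes CHOP, a C/EBP family member that blocks DNA binding by its partners, went from 5.75 to 9.60 CPM with vehicle to 223 to 300 CPM with APAP under the WT label and from 5.63 to 7.14 to 110 to 238 CPM under the KO label. Its log2 fold change was 4.94 (SE 0.23, adjusted p = 8.42e-08, edgeR), and the groups did not overlap. *Trib1*, a pseudokinase that directs C/EBPα to degradation, rose by 2.31 on the log2 scale (SE 0.24, adjusted p = 4.10e-05), and *Atf4*, a stress factor that pairs with C/EBP proteins, by 1.32 (SE 0.24, adjusted p = 0.00158). *Trib3* (1.39), the helix-loop-helix inhibitors *Id1* (1.61) and *Id3* (1.97) and *Cebpd* (1.07), a further acute-phase C/EBP, were the others that passed. Of the same 12, 9 rose and 1, *Cebpe* (-0.89), fell under the KO label (13.0% and 9.6% of all genes), and under the WT label 2 rose (*Ddit3* and *Trib1*) and 0 fell (1.62% and 0.427%).

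Of 24 other liver-enriched transcription factors, 2 rose and 6 fell over the 12 livers (14.0% and 11.4% of all genes), and the list's median was -0.30 on the log2 scale. *Nr1i3*, the xenobiotic receptor CAR, went from 259 to 420 CPM with vehicle to 119 to 184 CPM with APAP under the WT label and from 317 to 364 to 127 to 172 CPM under the KO label (log2 fold change -1.18, SE 0.15, adjusted p = 0.000147, edgeR). *Ppara*, the fatty acid receptor of the fasted liver, fell by 1.20 on the log2 scale (SE 0.17, adjusted p = 0.000396), *Klf15*, a factor of amino acid use in fasting, by 1.38 (SE 0.19, adjusted p = 0.000320) and *Nfib* by 0.85 (SE 0.09, adjusted p = 6.64e-05). *Nfia* (-0.46) and *Nr0b2* (-0.75), which encodes SHP, a repressor of NR5A2 and HNF4A, also fell, while *Hhex* (1.15) and *Atf5* (0.61) rose. Under the KO label 4 rose and 5 fell (13.0% and 9.6% of all genes), and under the WT label 0 rose and 1 fell (1.62% and 0.427%), which was *Nfib* (log2 fold change -0.83, adjusted p = 0.0398).

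Of 16 coregulators of FOXA, HNF4A and LRH-1, 1 rose and 1 fell over the 12 livers, both below the share of all genes (14.0% and 11.4%), with a median of -0.12. *Nrip1*, a corepressor of nuclear receptors, rose by 1.77 on the log2 scale (SE 0.17, adjusted p = 1.93e-05, edgeR), and *Hdac3*, a histone deacetylase, fell by 0.28 (SE 0.09, adjusted p = 0.0349). *Nrip1* rose under both labels (1.64 and 1.91). Under the KO label *Crebbp* also rose (0.57, adjusted p = 0.0278) and *Ppargc1b* fell by 1.09 (adjusted p = 0.0324), both by edgeR, which makes 2 higher and 1 lower of 16, where 13.0% and 9.6% of all genes were. In WT livers *Nrip1* was the 1 gene of the list called, where 1.62% of all genes rose.

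Of 30 hepatocyte products, many of them targets of the 9 factors, 0 rose and 9 fell over the 12 livers (14.0% and 11.4% of all genes), and the list's median was -0.27 on the log2 scale. *Pck1*, the rate-limiting enzyme of gluconeogenesis, went from 3221 to 6145 CPM with vehicle to 1678 to 2272 CPM with APAP under the WT label and from 2933 to 4463 to 1282 to 1774 CPM under the KO label (log2 fold change -1.31, SE 0.18, adjusted p = 0.000272, edgeR). *F7*, which encodes coagulation factor VII, fell by 0.85 on the log2 scale (SE 0.11, adjusted p = 0.000200) and the bile acid uptake transporter *Slc10a1* by 0.88 (SE 0.12, adjusted p = 0.000316). Among the others that fell were *Cyp8b1* and *Slco1b2* of bile acid handling, *F9*, *Hpd* and *Tfr2*. Under the KO label 0 rose and 8 fell (13.0% and 9.6% of all genes), among them *Cyp7a1*, the rate-limiting enzyme of bile acid synthesis (-1.37, SE 0.23, adjusted p = 0.00573, edgeR). Under the WT label 0 of the 30 were called (1.62% of all genes higher and 0.427% lower), and *Hpd* (-1.04, adjusted p = 0.0702) and *Pck1* (-1.27, adjusted p = 0.0821) had the smallest unadjusted p-values.

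Of 12 measured genes of the fetal and biliary program, 3 rose and 0 fell over the 12 livers (14.0% and 11.4% of all genes), with a median of 0.35. *Sox9*, a factor of bile duct cells that injured hepatocytes can also express, went from 1.65 to 6.16 CPM with vehicle to 18.3 to 37.9 CPM with APAP under the WT label and from 1.32 to 2.07 to 16.2 to 26.4 CPM under the KO label (log2 fold change 3.20, SE 0.32, adjusted p = 2.59e-05, edgeR). *Epcam* (0.82, adjusted p = 0.0209) and *Afp* (1.11, adjusted p = 0.0266) also passed, both at low levels. Over the 12 livers *Epcam* had 0.461 to 1.52 CPM and *Afp* 0.272 to 1.87 CPM. Within the KO label *Sox9* rose (3.46, adjusted p = 0.000242, edgeR) and *Prom1*, a progenitor surface marker, fell by 1.16 (adjusted p = 0.0466), so 1 gene moved in each direction, where 13.0% and 9.6% of all genes did. In WT livers *Sox9* alone passed (2.98, adjusted p = 0.0337, edgeR), where 1.62% of all genes rose. The biliary marker sum, of which *Sox9* is a member, was 18.5 to 20.2 TPM with vehicle and 26.5 to 36.6 with APAP under the WT label, and 27.0 to 31.1 and 29.3 to 32.3 under the KO label; its part in these results was not tested. Between genotype labels 0 genes of any of the 5 lists passed by edgeR at either treatment.

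**Figure D5:**
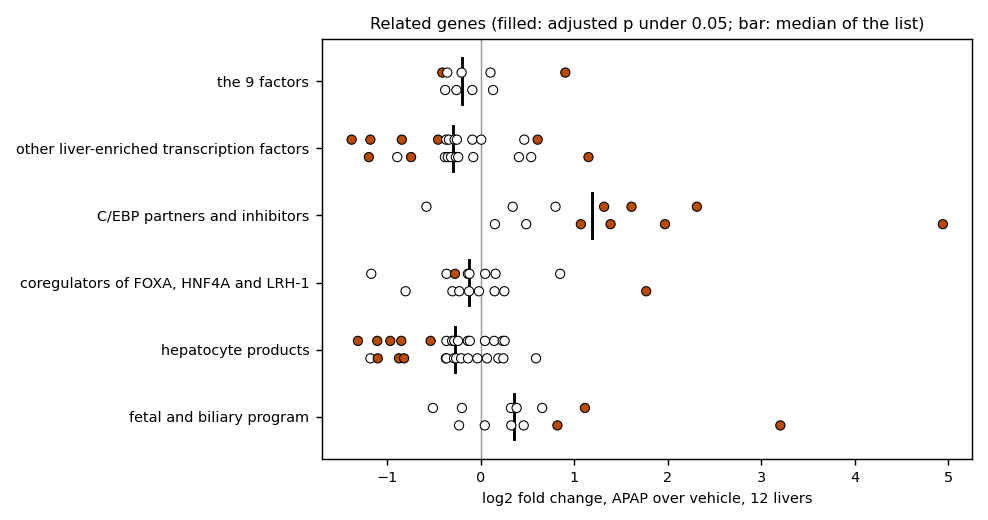
Log2 fold change with APAP over the 12 livers (horizontal axis) for the 9 factors and for each gene tested in 5 lists of related genes; filled points have an adjusted p under 0.05 and the vertical bar is the median of the list. The list of C/EBP partners and inhibitors has 7 filled points to the right of 0 and *Ddit3* farthest at 4.94, whereas the 9 filled hepatocyte products lie to the left.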

How the data were processed

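Read counts, FPKM and TPM per gene and liver were deposited by the authors in 1 table on mm10 (GRCm38). The counts deposited by the authors are unscaled, the FPKM values deposited by the authors were not tested, and the TPM values deposited by the authors served levels per length and limma. The submitters' notes name HISAT2 2.1.0, Bowtie2 2.3.4.1 and StringTie 2.1.3b without roles, and the strand setting of the counting is not given in the sources used here. Counts were TMM-scaled, filtered with filterByExpr and tested with edgeR 4.0.16 (glmQLFTest, R 4.3.3), and p-values were adjusted by Benjamini-Hochberg across every gene that passed the filter. Treatment was tested over 12 livers with genotype label as covariate and within each label, genotype label within each treatment, and their interaction over 12 livers. Libraries were separate livers, and p-values measure the spread between them. Intervals of single genes are from the same fits. Alternatives were DESeq2 1.42.0, limma 3.58.1, other filters, all livers in 1 fit, the replicate number as a block, and each liver left out. Leaving out both livers that stood apart, the ratios and the pairs of factors were added after seeing the data. The 9 factors and the gene lists were chosen with earlier results of these data known. In each list and comparison the 4 called genes with the smallest p (or 2 with none called) were named by rule, and the others were chosen after their values were seen. Likeness took the 2 genes with the highest r over 12 livers. Scripts were tested on simulated data. Promoter windows are from RefSeq (GRCm38.p6), and all 9 factors matched by symbol. The exact permutation tests are two-sided, and pairs of factors used 100000 permutations of all 12 livers, not held within groups. Of the list genes that the rule names, 1 is not reported here.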

Additional observations from a re-analysis of the deposited data

How the results depend on the processing

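Each comparison was recomputed under DESeq2 size factors, DESeq2's Wald test, no filter, at least 10 counts in every liver, all 12 livers in 1 fit, the replicate block, limma on log2(TPM + 1), with and without a filter, and on log2(TPM + 0.1), and an unmoderated test on the study's scale. Of single-factor values under these settings and without both livers that stood apart, 521 kept their direction and side of the threshold and 19 reversed. With the direction kept, 5 newly passed and 4 no longer passed. *Prox1* over the 12 livers without both is counted as reversed, although it also newly passed (adjusted p = 0.0328, edgeR). The cause was not tested. *Cebpb* and *Nr5a2* passed over the 12 livers in all 9 settings. Same-numbered livers did not deviate together (correlations -0.456 to 0.208), so the numbers were not taken as pairs.

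*Onecut1* under the KO label reversed to 0.76 with the replicate block, 0.49 with limma on log2(TPM + 1), with or without a filter, and on the study's scale, and 0.73 with log2(TPM + 0.1). *Cebpa* between labels after APAP, near 0, reversed to -0.0091 in 1 fit of all livers, -0.138 with log2(TPM + 1), with or without a filter, and on the study's scale, and -0.139 with log2(TPM + 0.1). Without both livers that stood apart, an alternative chosen after seeing the data, 4 factors passed over the remaining 10, where 33.3% of 16887 genes did, *Foxa2* turned to 0.22 and *Prox1* to 0.26. In WT livers *Hnf4a* turned to 0.21, *Foxa2* to 0.16, *Foxa3* to 0.10, *Onecut1* to 0.32 and *Prox1* to 0.38, and in the interaction *Onecut1* to 0.55 and *Prox1* to 0.20.

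Under the WT label 322 of all genes passed, against 1413 with the Wald test, 1523 in 1 fit of all livers, 62 with the replicate block, 136 with limma without a filter, 3 on the study's scale and 631 without both livers. Under the KO label 2 factors and 3538 genes passed, against 0 and 2249 in 1 fit of all livers, 1 factor with the replicate block, and 1 and 1030 on the study's scale. Between labels after APAP 5 genes passed, against 29 (Wald), 1 (10 counts in every liver), 0 (1 fit), 1 (replicate block), 10 (log2(TPM + 0.1)) and 1 (study's scale). Between labels with vehicle 4 genes passed, against 137 and 1 factor (Wald), 0 (1 fit), 0 (replicate block), 17 (log2(TPM + 0.1)) and 0 (study's scale). The interaction gave 9 genes with the Wald test and 3 with log2(TPM + 0.1), against 0.

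Leaving out each liver in turn, 1 to 3 factors passed over the 12 livers, 1 to 3 under the KO label and 0 to 1 under the WT label. Counts over all genes ranged from 3225 to 4811 over the 12 livers, 1995 to 3368 under the KO label, 41 to 442 under the WT label, 1 to 7 between labels after APAP, 0 to 16 with vehicle and 0 to 2 for the interaction. Over the 12 livers *Foxa2* ranged from -0.42 to 0.038, *Onecut1* from -1.09 to 0.60 and *Prox1* from -0.15 to 0.14. In WT livers *Foxa1* ranged from -0.58 to 0.045, *Hnf4a* from -0.40 to 0.094, *Onecut1* from -2.37 to 0.037 and *Prox1* from -0.56 to 0.10. Under the KO label *Cebpa* ranged from -0.37 to 0.061 and *Onecut1* from -0.76 to 2.28. Between labels after APAP *Cebpa* ranged from -0.23 to 0.22, *Foxa1* from -0.16 to 0.39, *Nr5a2* from -0.28 to 0.083, *Onecut1* from -1.95 to 0.44 and *Prox1* from -0.23 to 0.24, and with vehicle *Foxa1* from -0.42 to 0.19, *Foxa3* from -0.082 to 0.35 and *Onecut1* from -0.36 to 2.66. In the interaction *Cebpa* ranged from -0.42 to 0.029, *Cebpb* from -0.49 to 0.15, *Nr5a2* from -0.13 to 0.21 and *Onecut1* from -2.75 to 0.27.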
